A study of Micropterus salmoides with 45 samples.

Results

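The severe hypoxia course comprised 15 liver libraries of largemouth bass (Micropterus salmoides), 3 at each of 0, 4, 8, 12 and 24 h, out of 45 libraries in the series. They were chosen by their titles alone, and each later time was compared with the 0 h libraries of the same oxygen level and with the time before it. Fish 6 months old were kept at 20 °C without food, and dissolved oxygen was brought down to 1.2 ± 0.2 mg/L with nitrogen gas. The clock started when that level had been reached, so the 0 h fish had already passed through the fall in oxygen and are not untreated fish. The severe level had 3 tanks of 30 fish, from each of which 5 fish were taken, and the labels tie no library to a tank or say whether it holds 1 fish. The p-values therefore measure the spread between these libraries. The 2 other courses were control fish at 7 mg/L and moderate hypoxia at 3.0 ± 0.2 mg/L, both also fasted. Each had 15 libraries of the same times. They were used in models of all 45 libraries, for tests between and within those courses, and to describe levels beside the severe ones.

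Cells that run short of oxygen stabilise hypoxia-inducible transcription factors, which raise genes of glycolysis, glucose uptake and oxygen delivery and restrain the use of oxygen in mitochondria. The liver of a fish stores glycogen and lipid, releases glucose, and makes most plasma proteins, so it is a main site at which fuel use changes when oxygen falls. The study asked how acute hypoxia alters the use of glucose and lipid in this organ. The genes measured here carry only the identifiers of a de novo assembly, and 0 of the 2660 identifiers matched the RefSeq gene table of the species. Genes are therefore described by their course, level and length, without a function. For the same reason markers of liver cells or of blood could not be read, and in whole tissue fewer cells of a type and less RNA per cell cannot be told apart.

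The values are RPKM, reads scaled to gene length in kilobases and to library size. Reads recovered from them gave library totals of 30453312 to 33313074 in the 15 severe libraries, and the median gene had 448 reads in a library, so the counting error of most genes was small. Most reads of each library lay outside the listed genes, so shares of genes below refer to this list and not to the liver as a whole. Whether the list was chosen for differences between the courses is not known. Shares of called genes and contrasts between courses may therefore partly reflect that choice. Of the 2660 genes, 2613 reached at least 1 RPKM in at least 3 severe libraries and were tested. Comparisons used log2(RPKM + 1), which understates the fold of genes with low levels.

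Libraries close in time were alike, and those far apart in time were less so. Across the 2613 genes, the correlation of log2 levels between libraries was 0.95 among the 3 libraries at 0 h and 0.94 to 0.95 among those at 24 h, and it fell to 0.72 to 0.78 between 0 h and 24 h. Libraries share depth and gene content, so these are descriptions. Replicate 3 at 8 h stood apart from the other libraries of its time. Its mean correlation was 0.889 with the other two 8 h libraries, 0.914 with the 12 h libraries and 0.901 with the 24 h libraries. The other two 8 h libraries correlated with the 12 h libraries at 0.817 and 0.875. They correlated with the 24 h libraries at 0.786 and 0.831. Replicate 3 at 12 h was as close to the 24 h libraries (0.915) as to its own group (0.913). Counts at 8 h are given with and without replicate 3.

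**Figure D1:**
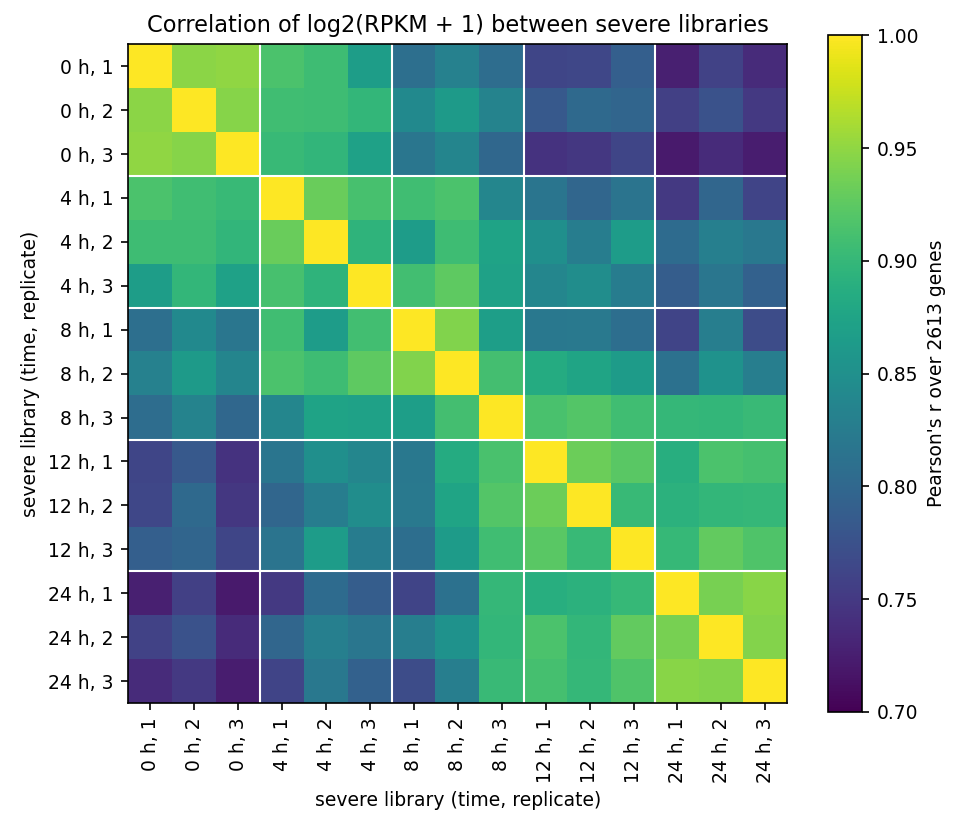
Pearson's r of log2(RPKM + 1) over 2613 genes for each pair of the 15 severe libraries, ordered by time and replicate, with white lines between the times. Values run from 0.72 between 0 h and 24 h to 0.95 within 0 h, and replicate 3 at 8 h resembles the 12 h and 24 h libraries (means 0.914 and 0.901) more than its own group (0.889).

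The distance of each library from the start of its own course was measured as the median absolute log2 difference from the 0 h mean over all genes tested. Each 0 h library, set against the mean of the other two, lay at 0.24 to 0.25. The distance of the severe libraries then grew to 0.27 to 0.40 (4 h), 0.45 to 0.64 (8 h), 0.66 to 0.81 (12 h) and 0.77 to 0.91 (24 h). The ranges of 4 h and 8 h did not overlap, nor did those of 8 h and 12 h, whereas those of 12 h and 24 h did. Control libraries at 4 to 24 h lay between 0.23 and 0.62, with the highest value in replicate 3 at 4 h, and moderate libraries reached 0.54 at 24 h. From 8 h on, each severe library was farther from its start than each control and each moderate library of that time. The typical spread within a severe group was narrowest at 0 h, with a median SD over genes of 0.25 on the log2 scale, and 0.29 to 0.33 at later times.

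**Figure D2:**
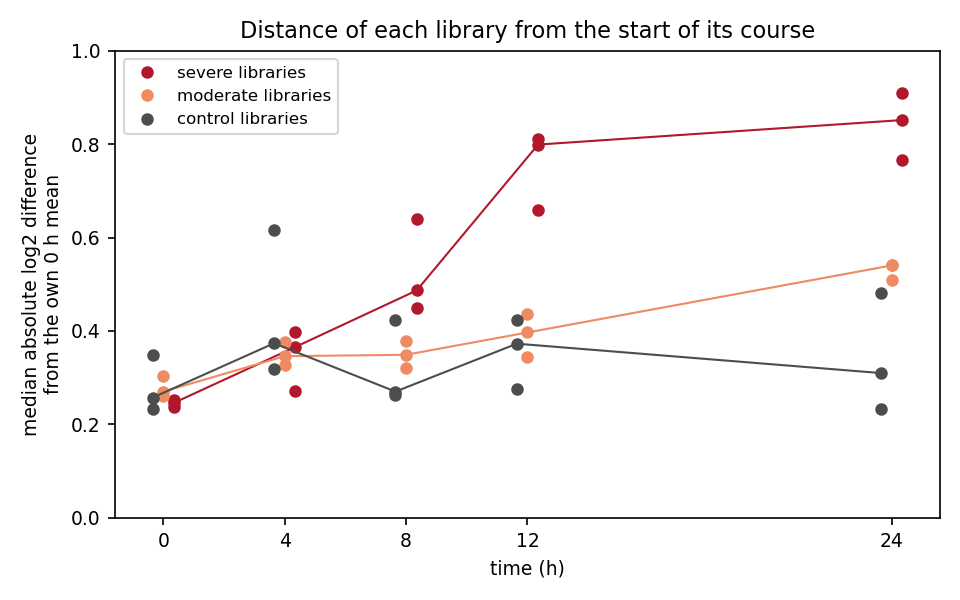
Median absolute log2 difference of each library from the mean of its own 0 h libraries (vertical axis) against time in hours, with 1 point per library and lines through the group medians. Severe libraries rise from 0.24 to 0.25 at 0 h to 0.77 to 0.91 at 24 h, while control libraries stay at 0.62 or less.

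Over the course as a whole, 1739 of 2613 genes (66.6%) differed among the 5 severe times (limma F-test, Benjamini-Hochberg adjusted p under 0.05, the rule for a call throughout). Against the own start, 12 genes (0.459%) were called after 4 h, 522 (20.0%) after 8 h, 1393 (53.3%) after 12 h and 1543 (59.1%) after 24 h. Higher genes outnumbered lower ones at all 4 times, by 11 to 1, 324 to 198, 753 to 640 and 919 to 624. That excess was not robust to scaling at 8, 12 and 24 h, while at 4 h it remained. After quantile normalization the numbers were 12 and 3, 329 and 366, 624 and 693, and 737 and 748, and after centring each library on its median gene 11 and 1, 274 and 299, 639 and 788, and 752 and 814. The median change of all genes at 24 h moved from 0.13 to -0.02 and -0.06 under these scalings, so directions are relative to a small general shift. The size of a called change was similar at the later times, with medians of 1.11 (8 h), 1.03 (12 h) and 1.14 (24 h) on the log2 scale. These medians cover only genes that passed the test at that time, so they do not describe the change of all genes. Changes of at least 2-fold numbered 12, 326, 742 and 996. The 4 comparisons share the 3 libraries at 0 h, and the 12 genes at 4 h and the later lists are therefore not independent of one another.

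**Figure D3:**
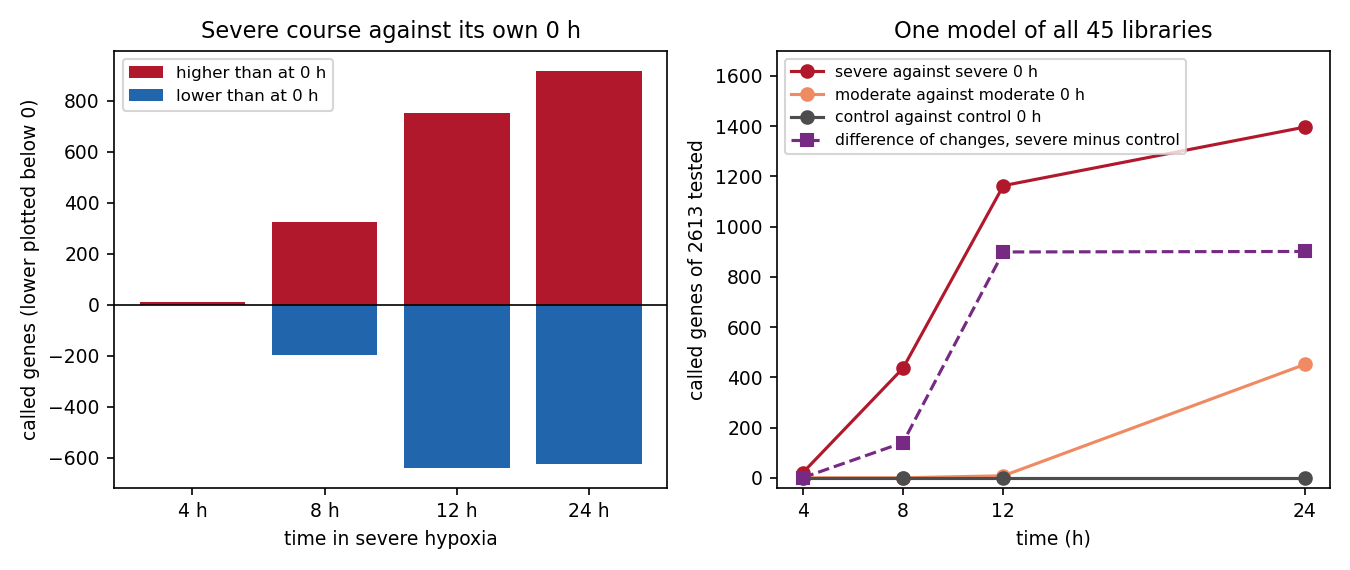
Left, called genes in the severe course against its own 0 h at 4, 8, 12 and 24 h, higher genes above and lower genes below the zero line (919 and 624 at 24 h). Right, called genes of 2613 in one model of all 45 libraries for the severe, moderate and control courses against their own 0 h, and for the difference of the severe and control changes, which reaches 901 at 24 h while the control course stays at 0.

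At 4 h 12 genes were called against 0 h, and 11 of them had risen. A count of calls from 3 against 3 libraries does not measure how many genes changed. The libraries of the 2 times did not overlap for any of the 12, a condition met by 21.5% of all genes tested. The gene c88960_g1 (3129 bp) stood at 4.01, 3.02 and 2.03 RPKM in the 3 starting libraries and had reached 14.3, 30.6 and 33.9 RPKM by 4 h. This was a log2 rise of 2.71 (SE 0.39, adjusted p = 0.00417). It went on to 27.6, 65.6 and 91.8 RPKM (8 h), 87.8, 82.3 and 73.4 (12 h) and 117, 70.5 and 82.9 (24 h), so the libraries of the last 3 times overlapped. The change from the start was 3.83, 4.38 and 4.50 at these times (adjusted p = 2.34e-05, 9.42e-06 and 6.46e-06). Control libraries of all times held 0.363 to 2.53 RPKM. The severe libraries at 0 h already lay above the 3 control libraries at 0 h, which held 0.363, 1.04 and 0.816 RPKM, although this difference of 1.20 did not pass the test (adjusted p = 0.564).

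The gene c73830_g1 (1765 bp) showed the other early pattern, a pulse. It stood at 33.9, 26.2 and 24.5 RPKM in the starting libraries and jumped to 243, 202 and 199 RPKM by 4 h, a rise of 2.89 (SE 0.41, adjusted p = 0.00417). At 24 h it was back at 14.6, 24.3 and 33.9 RPKM, which overlapped the range of the start (log2 change -0.27, adjusted p = 0.586). All 3 libraries at 4 h were high. Those at 8 h held 113, 161 and 70.4 RPKM, and those at 12 h were split, with 203 RPKM in replicate 1 and 57.0 and 75.8 in the others. In one model of all 45 libraries its rise at 4 h was not called (adjusted p = 0.112). The gene also varied widely between moderate libraries. Moderate replicate 2 at 0 h stood at 101 RPKM against 19.4 and 43.7 in the others of that time. Moderate replicate 3 at 8 h stood at 94.0 RPKM against 8.54 and 1.56, and the moderate libraries at 24 h held 36.3 to 67.8. The only fall at 4 h, named after its values were seen, was that of c84135_g2 (6139 bp), from 8.94, 8.32 and 9.81 RPKM to 3.20, 3.12 and 4.43 (log2 change -1.14, SE 0.22, adjusted p = 0.0249), and it stayed at 2.22 to 4.43 RPKM in every later library. This call ended in 8 of 24 alternative fits, among them a pseudocount of 0.1, a model of the 6 libraries of both times, and those without any 1 of the 3 severe 0 h libraries or without 4 h replicate 1 or 2 (adjusted p up to 0.125).

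Leaving out severe 0 h replicate 1 gave 6 calls at 4 h, leaving out severe 0 h replicate 3 gave 7, and there were 19 in the model of all 45 libraries. At an unadjusted p under 0.05 there were 388 genes. Against the control libraries of the same time, that model called 245 genes (9.38%) at 4 h and 0 at the start (154 at an unadjusted p under 0.05, and 0 also with voom).

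At 8 h 324 higher and 198 lower genes were called. Among called genes whose mean reached 5 RPKM and whose libraries did not overlap between the times compared, the largest rises were those of c84833_g1 (3872 bp) and c88960_g1. The gene c84833_g1 was close to silent at 0 h, with 0.717, 0.786 and 0.147 RPKM from 18 to 97 reads. It reached 104, 87.4 and 17.7 RPKM (4 h), 723, 251 and 14.9 (8 h), 246, 8.66 and 120 (12 h), and 36.6, 307 and 16.7 (24 h). Each library at 4 to 24 h lay above each 0 h library, but the libraries of each later time differed several-fold among themselves, most of all at 8 h. The change at 8, 12 and 24 h was 6.55, 5.44 and 5.28 (SE 1.34 each, adjusted p = 0.00637, 0.00567 and 0.00408), and that of 5.19 at 4 h did not pass (adjusted p = 0.134).

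The largest falls at 8 h under the same rule were those of c91371_g2 (1933 bp) and c88076_g1 (3357 bp). The first went from 186, 114 and 113 RPKM at the start to 74.6, 21.8 and 16.7 after 8 h (log2 change -2.11, SE 0.54, adjusted p = 0.0165), and it lay between 14.4 and 61.0 RPKM in the libraries of 12 h and 24 h. Control libraries of this gene spread from 8.25 to 354 RPKM, and its fall was not called without severe 0 h replicate 1 or 8 h replicate 2 or 3, nor in the model of all 45 libraries (adjusted p up to 0.125). The second went from 89.7, 41.9 and 20.8 RPKM to 9.62, 9.67 and 8.58 by 8 h (log2 change -2.10, SE 0.45, adjusted p = 0.00768). It stood at 3.25, 8.31 and 3.43 RPKM at 24 h, where the change was -2.97 (SE 0.45, adjusted p = 0.000188), while the step from 12 to 24 h did not pass by itself (-1.43, adjusted p = 0.103).

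The count of 522 rested on few libraries: it was 188 without severe 0 h replicate 1, 236 without severe 0 h replicate 3, 300 without severe 8 h replicate 2 and 310 without severe 8 h replicate 3. Without replicate 3 at 8 h and replicate 3 at 12 h together, chosen after seeing the data, 369 genes were called, 238 higher and 131 lower.

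At 12 h most of the genes tested were called, and c84833_g1 still had the largest rise. Next came c84828_g3 (3317 bp), which stood at 5.31, 3.27 and 2.23 RPKM (0 h), 5.66, 22.8 and 14.7 (4 h), 10.9, 29.8 and 103 (8 h), 119, 70.0 and 129 (12 h), and 178, 63.9 and 109 (24 h). In this gene, 8 h replicate 3 lay within the range of 12 h, and the other two 8 h libraries lay below it. The change was 4.55 at 12 h (SE 0.63, adjusted p = 0.00031) and 4.62 at 24 h (SE 0.63, adjusted p = 0.000107), and no single step between neighbouring times passed the test (adjusted p from 0.115 to 0.973). The abundant gene c89999_g1 (4816 bp) fell from 525, 467 and 425 RPKM at the start to 127, 36.2 and 60.5 by 12 h (log2 change -2.83, SE 0.54, adjusted p = 0.00147). Its libraries at 24 h, at 84.1, 199 and 76.2 RPKM, stayed below all 0 h libraries, and control libraries held 419 to 844 RPKM at all times. The gene c90353_g2 (957 bp) began at 28.1, 57.5 and 50.5 RPKM, overlapped that range with 30.8, 15.8 and 60.3 at 4 h, and had fallen to 9.15, 9.19 and 2.31 by 12 h (log2 change -2.67, SE 0.53, adjusted p = 0.00189).

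**Figure D4:**
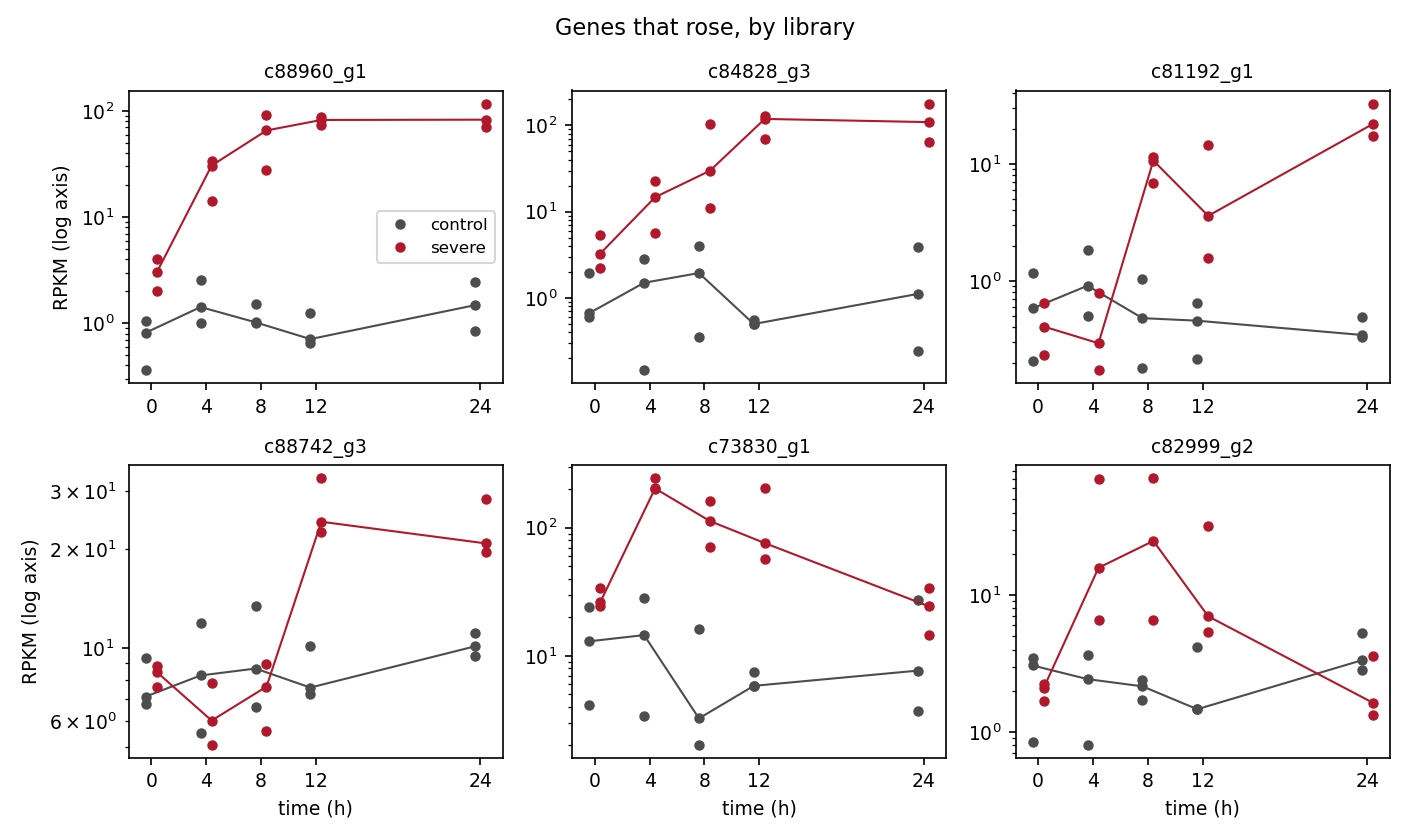
RPKM (log axis) of 6 genes that rose, by time in hours, with 1 point per library for the severe (red) and control (grey) courses and lines through the group medians. c88960_g1 and c84828_g3 climb and stay high, c81192_g1 and c88742_g3 start late, and c73830_g1 and c82999_g2 are back near their 0 h levels by 24 h.

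At 24 h the largest fall was a steady one. The gene c89965_g11 (1420 bp) stood at 236, 168 and 200 RPKM (0 h), 142, 70.7 and 91.4 (4 h), 51.9, 64.7 and 43.4 (8 h), 59.6, 43.2 and 19.0 (12 h), and 19.8, 25.6 and 26.1 (24 h). Its change reached -3.02 (SE 0.35, adjusted p = 3.93e-05), although no step between neighbouring times passed the test (adjusted p from 0.288 to 0.355) and the decline of -1.03 at 4 h did not either (adjusted p = 0.197). The 3 libraries at 24 h were closely alike, with 23.8 ± 3.52 RPKM (SD, n = 3) against 202 ± 34.0 at 0 h. The second largest fall was that of c88076_g1, and the rises were again led by c84833_g1 and c84828_g3. The calls of all 8 gene changes that led at 12 h and 24 h held in each of the 25 alternative fits, and the count at 24 h ran from 1281 to 1580 when single libraries were left out.

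**Figure D5:**
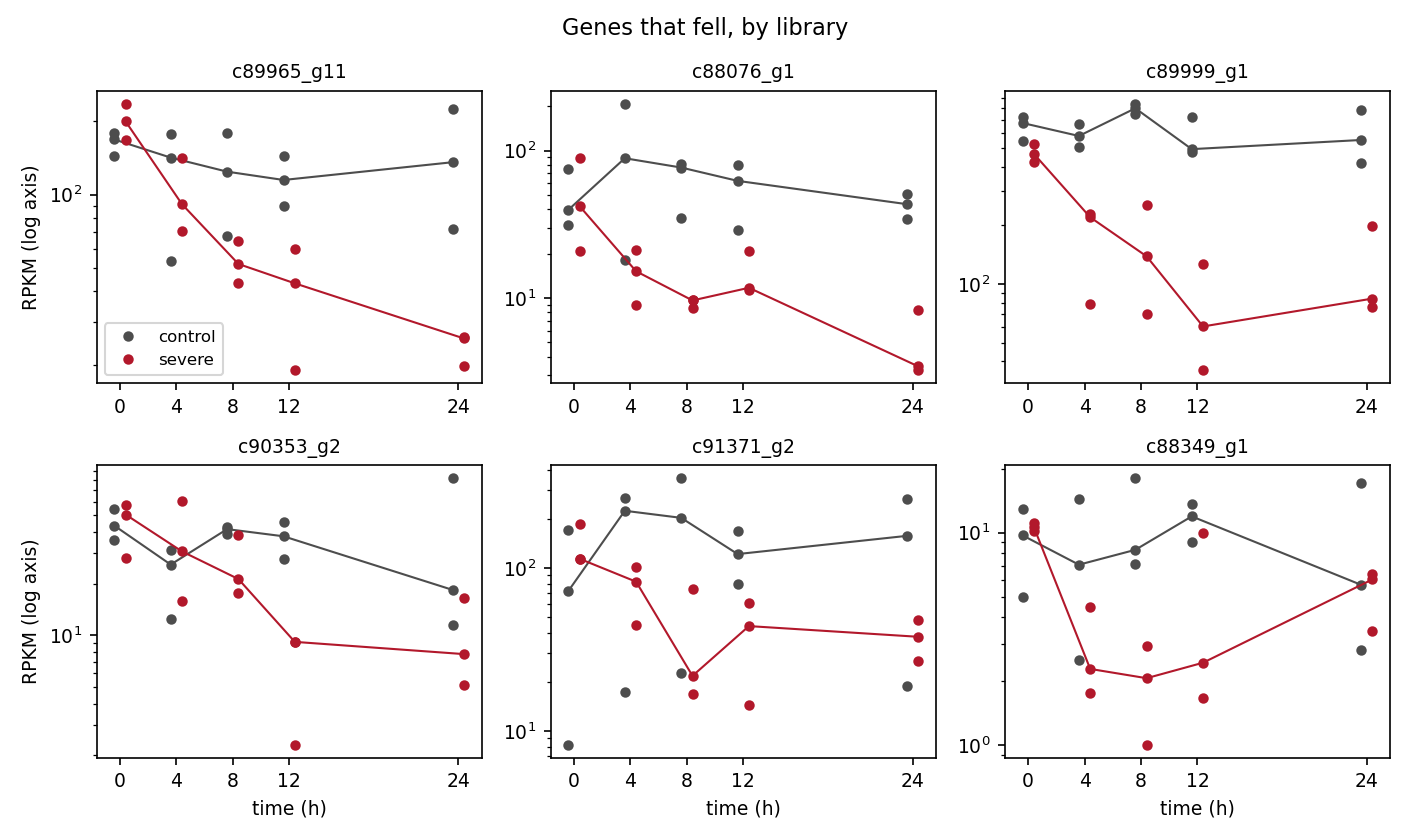
RPKM (log axis) of 6 genes that fell, by time in hours, with 1 point per library for the severe (red) and control (grey) courses and lines through the group medians. c89965_g11 has a lower median at each later time and ends at 19.8 to 26.1 RPKM. c88349_g1 has severe medians of 2.29 RPKM at 4 h, 2.07 at 8 h and 2.45 at 12 h, where replicate 2 stands at 10.02 RPKM.

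Steps between neighbouring times were tested in the same model and gave far fewer calls than the comparisons with the start. From 4 to 8 h, 26 genes rose and 2 fell (1.07%). The gene c81192_g1 (2471 bp) was near 0 at the start, with 0.646, 0.406 and 0.230 RPKM, and at 4 h, with 0.292, 0.781 and 0.173, and then reached 11.4, 6.87 and 10.6 RPKM by 8 h (log2 change 2.91, SE 0.47, adjusted p = 0.00234). The gene c84059_g4 (1137 bp) rose from 1.69, 1.72 and 1.70 to 4.98, 5.87 and 6.76 RPKM in that step (1.33, SE 0.24, adjusted p = 0.00597). It was not called when only these 6 libraries were modelled or only genes averaging 5 RPKM or more were tested. Its 0 h libraries held 2.30, 2.26 and 5.03 RPKM, so those at 4 h lay below the start and those at 8 h overlapped it. Both falls, named after their values were seen, were in genes of low level. The level of c88996_g9 went from 4.31, 5.33 and 2.16 to 0.837, 1.24 and 1.02 RPKM (log2 change -1.23, adjusted p = 0.0391). Its libraries held 2.03 to 3.58 RPKM at 0 h, 3.07 to 3.76 at 12 h and 2.52 to 4.48 at 24 h. The level of c90605_g2 went from 2.46, 1.42 and 1.79 to 0.587, 0 and 0.172 (log2 change -1.22, adjusted p = 0.0234). At 0 h c90605_g2 had stood lower than at 4 h, at 0.688 to 0.854 RPKM from 12 to 15 reads. The call of c88996_g9 ended in 15 of 24 alternative fits and that of c90605_g2 in 6 of 24, both with voom and when only these 6 libraries were modelled. This step had 45 calls without severe 4 h replicate 3, 49 when all 45 libraries were modelled and 14 when only the 6 libraries of both times were, and 25 without 8 h replicate 3.

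From 8 to 12 h, 50 genes rose and 77 fell (4.86%). A clean switch at this step was that of c88742_g3 (4936 bp), which stayed at 5.09 to 8.91 RPKM in all 9 libraries up to 8 h and rose to 22.6, 32.7 and 24.2 RPKM by 12 h, with 28.3, 19.6 and 20.8 RPKM in the 24 h libraries. Its step was 1.72 (SE 0.23, adjusted p = 0.000318). The larger rise of c90440_g4 (7372 bp), from 1.85, 2.52 and 11.2 to 14.4, 32.0 and 13.4 RPKM (1.97, SE 0.47, adjusted p = 0.029), again had 8 h replicate 3 near the 12 h libraries. The largest falls were those of c79574_g2 (849 bp), from 27.9, 9.79 and 5.68 to 1.30, 0.966 and 1.57 RPKM (log2 change -2.50, adjusted p = 0.0142), and of c83768_g7 (462 bp), from 16.3, 6.89 and 2.93 to 0.265, 0.955 and 1.11 RPKM (log2 change -2.23, adjusted p = 0.021). At 0 h c79574_g2 had stood at 1.47, 1.96 and 4.61 RPKM, so its 8 h libraries were raised and its 12 h libraries overlapped the start. The 0 h libraries of c83768_g7 held 7.53, 10.7 and 5.88 RPKM, above its 12 h libraries.

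The calls of c90440_g4, c79574_g2 and c83768_g7 each ended without severe 8 h replicate 1, and those of c90440_g4 and c83768_g7 also without 8 h replicate 2. The call of c90440_g4 ended without 12 h replicate 2 as well, and that of c83768_g7 without 12 h replicate 1, with voom and in the model of all 45 libraries. The count of this step grew to 498 without 8 h replicate 3, with 297 genes that rose and 201 that fell, and without it and 12 h replicate 3 together, chosen after seeing the data, 326 rose and 151 fell. There were 31 calls without 8 h replicate 1, 40 without 8 h replicate 2 and 68 without 12 h replicate 1. Modelling only the 6 libraries of both times left 42 calls, 5 of them higher, and ended those of c90440_g4 and c83768_g7.

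From 12 to 24 h, 26 genes rose (0.995%) and 10 fell (0.383%), together 1.38%. The gene c84468_g11 (1712 bp) stood at 2.45, 3.08 and 4.51 RPKM at 12 h, below its starting range of 7.00 to 7.90, and then at 21.5, 16.7 and 14.4 RPKM by 24 h (log2 change 2.10, SE 0.35, adjusted p = 0.0129). Before that its level had moved down and up, with 3.34, 6.91 and 1.32 RPKM at 4 h and 9.16, 7.23 and 12.0 at 8 h. Control libraries of all times held 0.0756 to 5.39 RPKM. The gene c81192_g1 rose a second time, from 1.56, 14.5 and 3.59 to 17.2, 21.9 and 32.6 RPKM (2.09, SE 0.47, adjusted p = 0.0432), a call that ended in 16 of 25 alternative fits. The falls were led by c73830_g1, whose pulse ended in this step (log2 change -2.02, adjusted p = 0.0317), and by c74480_g2 (1509 bp). The latter went from 11.6, 17.6 and 5.44 to 2.24, 1.67 and 2.11 RPKM (log2 change -1.94, adjusted p = 0.0145), having stood at 4.32 to 9.60 RPKM in all 9 libraries up to 8 h. All 4 genes lost their calls in this step without severe 12 h replicate 1 or 24 h replicate 1, and c73830_g1 and c74480_g2 also lost theirs in the model of all 45 libraries.

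The number of genes called from 12 to 24 h was 0 without severe 12 h replicate 1 (432 at an unadjusted p under 0.05) and also 0 when only the 6 libraries of both times were modelled (489 at an unadjusted p under 0.05). It was 109 without 12 h replicate 3, 14 without 12 h replicate 2, 2, 13 and 13 without 24 h replicates 1, 2 and 3, and 22 and 23 without 0 h replicates 2 and 3. After quantile normalization 7 genes rose and 6 fell in this step, and after centring on the median gene 16 and 12.

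The step from 12 to 24 h shares no library with the comparison of 8 h with 0 h, so the genes of the second can be followed into the first. Of the 324 genes higher at 8 h, 4 rose and 2 fell from 12 to 24 h, and of the 198 lower at 8 h, 2 rose and 0 fell. Over all 2613 genes tested, 26 rose (0.995%) and 10 fell (0.383%) in that step, and counts this small do not set the 8 h genes apart. The median change of the genes higher and lower at 8 h in that step was 0.02 and 0.08 on the log2 scale, against 0.10 over all genes tested. Of the 11 genes higher at 4 h, 0 rose and 1, c73830_g1, fell from 12 to 24 h, and their median was -0.46.

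Among the 1739 genes that differed over time, 667 (38.4%) had their highest mean at 24 h and 528 (30.4%) at 0 h, against 31.6% and 31.8% of all genes tested. The highest mean lay at 4, 8 or 12 h for 121 (6.96%), 160 (9.20%) and 263 (15.1%) genes, against 262, 270 (10.3%) and 424 (16.2%) of all 2613 genes. The lowest mean belonged to 0 h in 695 genes (40.0%) and to 24 h in 387 (22.3%), against 34.2% and 21.4%. Group means rose at each of the 4 steps in 305 of the 1739 genes (17.5%) and fell at each in 151 (8.68%), against 12.5% and 6.70% of all genes. These shares use the same values as the F-test and are descriptions. With the 0 h libraries left out, 935 genes differed among 4, 8, 12 and 24 h, of which 933 were among the 1739. The libraries of these later times are also part of the first F-test, so a large overlap was set in advance and is no support for it.

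Of the 1034 genes that differed over time and averaged 5 RPKM or more, 78 (7.54%) had all 8 h libraries above (56) or below (22) every 0 h and 24 h library. Among all 1471 tested genes averaging 5 RPKM or more, 97 (6.59%) had this pattern, and among all 2613 genes tested 203 (7.77%). The pattern uses the same values as the F-test, and a difference between these shares was not tested. The strongest peaks were c82999_g2 (320 bp) and c89084_g3 (4618 bp). The first stood at 2.09, 2.25 and 1.68 RPKM (0 h), 70.7, 6.60 and 15.8 (4 h), 71.1, 24.8 and 6.60 (8 h), 6.99, 32.1 and 5.39 (12 h) and 1.64, 1.33 and 3.56 (24 h; F-test adjusted p = 0.00803). This F-test did not pass with voom (adjusted p = 0.0783). The second ran from 1.11 to 1.84 RPKM at the start, through 16.4, 3.81 and 54.0 (4 h), 61.1, 22.9 and 3.98 (8 h) and 3.54, 9.02 and 0.918 (12 h), to between 0.813 and 2.68 at 24 h (F-test adjusted p = 0.0119). In both genes the high libraries at 4 h and 8 h differed several-fold from the low ones, and 8 h replicate 3 was the lowest of its time. That library lay below the highest moderate library of c82999_g2 (7.72 RPKM). It also lay below the highest control library of c89084_g3 (5.92 RPKM). The 0 h libraries of c82999_g2 held only 17 to 23 reads.

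The deepest dips were c88349_g1 (2253 bp) and c90582_g1 (4060 bp). The first fell from 10.1, 10.6 and 11.1 RPKM at the start to 2.94, 1.01 and 2.07 by 8 h (adjusted p = 0.00833). It already stood at 4.46, 1.75 and 2.29 RPKM at 4 h, which overlapped the 8 h range. At 12 h it held 2.45, 10.02 and 1.67 RPKM, so replicate 2 was near the 0 h level and the others were low. Control libraries of all times held 2.52 to 17.999 RPKM and moderate ones 2.17 to 25.2. At 24 h c88349_g1 stood at 6.03, 6.42 and 3.45 RPKM, still below all 0 h libraries. There it was no longer called against 0 h (log2 change -0.92, adjusted p = 0.0804). Its F-test did not pass with all 45 libraries modelled or without the 0 h libraries (adjusted p up to 0.231). The second moved from 12.0, 11.9 and 15.2 RPKM at the start down to 6.71, 8.16 and 5.41 by 8 h and then above its start, to 22.9, 21.0 and 25.7 by 24 h. Its change was -0.86 at 8 h (adjusted p = 0.0199) and 0.79 at 24 h (adjusted p = 0.00904), and the step from 12 to 24 h was 1.42 (SE 0.23, adjusted p = 0.0129).

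Time in the tank and fasting also passed in the control fish, so the change from 0 h was compared between courses in one model of all 45 libraries. In that model the severe course had 19, 436, 1163 and 1396 called genes at 4, 8, 12 and 24 h. The control course had 0 at each time (175, 140, 282 and 172 at an unadjusted p under 0.05), also with voom. Severe against control libraries of the same time gave 1045, 1840 and 1749 called genes at 8, 12 and 24 h in that model. Why these genes are listed is not known, and whether the choice of the list shaped the contrast between courses was not tested. The moderate course had 0, 0, 8 (0.306%) and 451 (17.3%), with 127 and 208 at an unadjusted p under 0.05 at 4 and 8 h, where voom called 0 as well and a fit with no intensity trend called 0 and 3. The severe change differed from the control change in 0 genes after 4 h (203 at an unadjusted p under 0.05, and 0 with voom), in 140 (5.36%) after 8 h, in 899 (34.4%) after 12 h and in 901 (34.5%) after 24 h. Each oxygen level had its own tanks, so tank and level cannot be told apart. The control libraries carry their own spread into this test, so a gene called against its start and not here is not shown to be shared with the control course.

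Named genes were chosen by their changes in these same severe libraries. A passed test of their difference from the control or the moderate course is therefore no independent support. For c88960_g1 the difference from the control course was 3.49 (SE 0.58, adjusted p = 0.001), 4.27 and 3.96 at 8, 12 and 24 h. For c89999_g1 it was -2.10 (adjusted p = 0.0327), -2.62 and -1.92 at the same times. For c81192_g1 it was 2.96 at 8 h (adjusted p = 0.00338) and 4.30 at 24 h (SE 0.59, adjusted p = 1.98e-05). The falls of c91371_g2 and c88076_g1 at 8 h did not pass it (-3.41, adjusted p = 0.114, and -2.50, adjusted p = 0.0596), nor did the early rise of c73830_g1 at 4 h (2.84, adjusted p = 0.564).

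The counts of this difference moved with scaling and with single libraries. Higher and lower genes at 8, 12 and 24 h numbered 102 and 38, 527 and 372, and 655 and 246. After quantile normalization they were 138 and 94, 404 and 388, and 419 and 355, and after centring on the median gene 113 and 79, 460 and 490, and 455 and 461. At 8 h there were 26 calls without severe 0 h replicate 1, 74 without severe 0 h replicate 3, 87, 86 and 136 without severe 8 h replicates 1, 2 and 3, 93, 81 and 63 without control 0 h replicates 1, 2 and 3, 61 and 52 without control 8 h replicates 1 and 2, and 222 without control 4 h replicate 3. At 12 h it was 558 and 551 without severe 0 h replicates 1 and 3, 512 and 572 without severe 12 h replicates 1 and 2, and 530 without control 0 h replicate 1. At 24 h it was 599 without control 24 h replicate 1.

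Severe and moderate courses differed in their change from 0 h in 0 genes after 4 h (194 at an unadjusted p under 0.05, and 0 with voom), in 104 (3.98%) after 8 h, in 340 (13.0%) after 12 h and in 127 (4.86%) after 24 h. The gene c84833_g1 differed at 8, 12 and 24 h, by 6.73, 5.70 and 5.00 on the log2 scale (adjusted p = 0.000988, 0.00475 and 0.0254), and in moderate hypoxia it held 0.504 to 1.05 RPKM at 24 h. For c88960_g1 the courses differed by 3.48 at 12 h (adjusted p = 0.000374) and by 0.88 at 24 h, which did not pass (adjusted p = 0.414), as its moderate libraries had reached 25.9, 28.7 and 26.6 RPKM at 24 h. The gene c84828_g3 showed the same order, with 3.53 at 12 h (adjusted p = 0.0119) and 0.47 at 24 h (adjusted p = 0.829), and c89999_g1 went from -2.87 (adjusted p = 0.0032) to -0.03 (adjusted p = 0.993).

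Higher and lower genes in this difference at 8, 12 and 24 h were 86 and 18, 276 and 64, and 114 and 13, against 81 and 34, 157 and 111, and 18 and 12 after quantile normalization and 76 and 26, 173 and 190, and 29 and 33 after centring. At 24 h the count ran from 29 without moderate 0 h replicate 1 to 192 without control 4 h replicate 3. It fell to 73 with moderate 0 h replicate 3 left out, to 33 and 68 without moderate 24 h replicates 1 and 3, to 63, 71 and 51 without severe 0 h replicates 1, 2 and 3, and to 74, 45 and 78 without severe 24 h replicates 1, 2 and 3. At 8 h it was 67 and 69 without severe 0 h replicates 1 and 3 and 113 without severe 8 h replicate 3, and at 12 h 192 without moderate 0 h replicate 1.

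By median length, the higher and the lower genes at 24 h were both longer than the genes not called. Only the higher ones were also longer than the genes tested as a whole, which include them. The median length was 3052 bp in the 919 higher genes, 2579 bp in the 624 lower ones and 2276 bp in the 1070 not called. It was 2608 bp in all genes tested. In the genes higher and lower at 8 h it was 2322.5 and 2309.5 bp. The median levels at 0 h of the genes higher, lower and not called at 24 h were 4.38, 7.84 and 4.66 RPKM. The choice of genes also used these levels. Longer genes are measured with more reads, and the part of this in the calls was not tested. The summed level of the higher genes went from a mean of 10377 to 25666 RPKM between 0 h and 24 h and that of the lower genes from 18308 to 8093, sums that follow from how the genes were chosen. The listed genes together took 12.4% ± 0.162 (SD, n = 3) of all reads in the 0 h libraries, 12.7% ± 0.297 (4 h), 13.2% ± 0.747 (8 h), 14.1% ± 0.867 (12 h) and 14.7% ± 0.357 (24 h) later. All libraries at 12 h and 24 h lay above all 0 h libraries (2-sided exact permutation p = 0.1 for each, the smallest that 3 against 3 can give).

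Genes of 1 assembly component can be copies or pieces of 1 gene, between which reads can be divided. Among 716 tested genes in 317 components with several genes there were 507 pairs. At 24 h both genes of a pair were called in the same direction in 201 pairs and in opposite directions in 30. One gene alone was called in 160 pairs and neither in 116. Of all genes tested, 59.1% were called at 24 h, so many pairs would hold called genes in any case. Pairs from different components were not counted, and pairs of 1 component can share a gene. Whether the members of a component are separate genes was not tested.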

How the data were processed

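Liver RNA was made into TruSeq libraries, read as 125-bp paired ends on an Illumina HiSeq, and the reads were assembled by Trinity, per the labels' protocols. The authors deposited 1 table per library, read here as RPKM from its values. How reads were aligned and counted, and why these 2660 genes (2245 components) are listed, is not given in the sources used here. One set of whole lengths and totals turned all 117443 values above 0 into whole reads (tolerance 0.01, largest distance 6.23e-05). Control 8 h replicate 2 has no value for 133 genes, which the models of 45 libraries fit without it.

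Genes reaching 1 RPKM in 3 or more severe libraries were kept (2613). limma 3.58.1 in R 4.3.3, with moderated variances and an intensity trend, was fitted to log2(RPKM + 1) of the 15 severe libraries with 5 time means, and to all 45 libraries with 15 group means for differences between courses. All p-values are 2-sided and Benjamini-Hochberg adjusted over all genes tested. The errors are those between libraries.

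Named genes are, per comparison, the 2 largest rises and 2 largest falls among called genes that average 5 RPKM or more and whose libraries do not overlap between the times, and for shapes the 2 strongest 8 h peaks and dips. Comparisons, lists and rules were chosen with earlier results of these data known. Alternatives were another pseudocount (0.1), no filter, a mean of at least 5 RPKM, quantile normalization, median centring, no trend, voom on the recovered reads, a 2-fold minimum, a replicate block, other models and leaving out each library. The 15 severe libraries gave no duplicated pair (lowest chi-square per gene over 105 pairs 68.8). The procedures were also run on simulated data with the same spread setting for all genes and no outlying library. That is a check of the code and not of the results above.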

Additional observations from a re-analysis of the deposited data

Results flagged for a closer look

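Changes from 0 h that differed between the severe and the control course, by the test of the difference in the model of all 45 libraries, are given for the genes named in the report. For c84833_g1 the severe change exceeded the control change by 6.41 at 8 h (SE 1.29, adjusted p = 0.00338), by 5.34 at 12 h (adjusted p = 0.00473) and by 5.44 at 24 h (adjusted p = 0.00295). For c88960_g1 it did so by 3.49 at 8 h (adjusted p = 0.001). For c84828_g3 the difference was 4.93 at 12 h (SE 0.93, adjusted p = 0.00123) and 4.38 at 24 h (adjusted p = 0.00138). Falls were deeper in the severe course for c89999_g1 at 12 h (-2.62, SE 0.59, adjusted p = 0.00349), c90353_g2 at 12 h (-2.40, adjusted p = 0.0182), c89965_g11 at 24 h (-2.70, SE 0.76, adjusted p = 0.00914) and c88076_g1 at 24 h (-2.88, SE 0.82, adjusted p = 0.00943). The control change of these genes ran from -0.38 to 0.34 on the log2 scale. The genes were named for large changes in the same severe libraries, so these tests are no independent support for those changes. Single libraries were not tested for lying apart within their groups of 3.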

How the results depend on the processing

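Of 170 values that alternatives other than leaving out 1 library gave for 16 gene counts, 132 stayed within 1.5 times the reported count. With a 2-fold minimum, 326 genes were called at 8 h, 742 at 12 h and 996 at 24 h against 0 h. Among genes that average 5 RPKM or more, which are fewer, the counts were 265, 817 and 972 against 0 h at 8, 12 and 24 h, 1, 56 and 21 in the steps 4 to 8, 8 to 12 and 12 to 24 h, 1039 in the F-test, 67 and 525 for severe minus control at 8 and 12 h, and 1, 46, 221 and 81 for severe minus moderate at 4, 8, 12 and 24 h. The model of all 45 libraries gave 19 at 4 h and 49 in the step 4 to 8 h. Models of the compared libraries gave 14, 42 and 0 in the 3 steps, and 58 and 214 for severe minus moderate at 8 and 24 h. A pseudocount of 0.1 gave 19 in the step 12 to 24 h, 90 for severe minus control at 8 h and 56 for severe minus moderate at 24 h. Quantile normalization gave 13 in the step 12 to 24 h, 232 for severe minus control at 8 h and 30 for severe minus moderate at 24 h, where centring gave 62. Voom, fitted without the 133 genes missing in 1 library, gave 32 for severe minus control at 8 h and 64, 207 and 21 for severe minus moderate at 8, 12 and 24 h. The F-test without 0 h gave 935, and the step 8 to 12 h without 8 h replicate 3 and 12 h replicate 3 gave 477. For these the cause was not tested, apart from the stricter criteria and fewer libraries that an alternative itself brings.

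Leaving out each library in turn gave 6 to 17 genes at 4 h, 188 to 589 at 8 h, 953 to 1473 at 12 h and 1281 to 1580 at 24 h, 25 to 45, 31 to 498 and 0 to 109 in the 3 steps, and 1426 to 1803 in the F-test. For severe minus control it gave 0 to 4, 26 to 222, 512 to 1061 and 599 to 1021, and for severe minus moderate 0 to 5, 67 to 138, 192 to 443 and 29 to 192 at 4, 8, 12 and 24 h.

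The replicate numbers did not pair the libraries: of 30 same-numbered pairs of severe libraries, 4 had deviations from their group means that correlated above 0.1 (r from -0.23 to 0.33). With the replicate block, the step 8 to 12 h had 82 calls and severe minus moderate at 4 h had 1, and the other counts stayed within 1.5 times. Of 772 alternative values for the named genes, 694 kept the call, 78 lost it and 0 changed sign.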
